A study of Mus musculus with 18 samples.

Results

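The apelin system was followed through its 3 genes in mouse gastrulation, the ligand genes Apln and Apela and the receptor gene Aplnr, out of 22997 nuclear genes in the count files. The genes were chosen by name with earlier results of these data known, and the cells were selected on measured values: at least 2000 nuclear transcripts, and detection of Mesp1, Foxa2, T or a member itself. Depth, Mesp1, Foxa2 and T were therefore not tested between cells split on them. All embryos were C57BL/6 wild type. E6.75 gave 6 libraries of hand-picked cells from singly dissociated embryos whose extraembryonic part had been cut off, and E7.5 gave 12 libraries of flow-sorted cells from pooled embryos of 1 or 2 litters that kept extraembryonic mesoderm, each library holding 96 cells. Hand-picked cells were processed by CEL-Seq2 and sorted cells by its automated form mCEL-Seq2, so stage, collection and protocol cannot be told apart.

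After filtering, 543 of 576 barcodes at E6.75 and 429 of 1152 at E7.5 were kept, and E7.5 replicate 5 kept 0 cells and entered nothing. Kept libraries held 2921862 to 5493791 nuclear transcripts in the 6 early libraries and 488908 to 2618539 in the 11 late ones. E6.75 replicates 2_13 and 2_14 stood apart, with the deepest cells and most of the receptor transcripts of that stage. Several tests that rest on them are given with and without them. Nothing in the labels ties the libraries to separate embryos, so p-values measure the spread between libraries, which may be partly technical. Levels are in CPM, the share of a gene in the nuclear transcripts summed over the cells of a library.

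Apln and Apela encode short secreted peptides that bind the same G protein-coupled receptor, encoded by Aplnr. Apelin signalling is best known for guiding migrating mesendoderm cells in fish gastrulation and for heart and blood vessel development in vertebrates. Both peptides are cut from longer precursors by proprotein convertases, and their carboxyl-terminal ends bind the receptor.

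In the GRCm38 annotation (GENCODE M21), Aplnr lies on chromosome 2 at 85136225 to 85139923 (plus strand), with its main protein-coding transcript in 1 exon. Apela lies on chromosome 8 at 65028417 to 65037336 (minus strand) and Apln on chromosome X at 48025146 to 48034853 (minus strand). A noncoding transcript on the same strand overlaps Apela, and the count files have no separate row for it. The coding sequences of both ligands are shown because the receptor is shared although the precursors differ; they run 5′ to 3′ from start to stop codon, and capitals mark the last 13 codons before the stop, which encode the carboxyl-terminal end of each peptide.
Apela: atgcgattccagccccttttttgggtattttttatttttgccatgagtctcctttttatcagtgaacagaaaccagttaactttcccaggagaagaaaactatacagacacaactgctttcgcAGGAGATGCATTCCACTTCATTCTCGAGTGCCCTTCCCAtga
Apln: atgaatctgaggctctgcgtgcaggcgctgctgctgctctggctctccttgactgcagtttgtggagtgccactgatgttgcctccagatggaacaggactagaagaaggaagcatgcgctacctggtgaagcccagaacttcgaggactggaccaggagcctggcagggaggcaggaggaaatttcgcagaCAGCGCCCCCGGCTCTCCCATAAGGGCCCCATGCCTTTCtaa
The Apela precursor has 54 residues and the Apln precursor 77, against 377 for the receptor. Set end to end without gaps, the marked ends share the same residue at 2 of 13 positions.

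Aplnr rose most between the stages. In whole libraries its level ran from 0 to 3.49 CPM (median 0.309) at E6.75, with 36 transcripts in 23 of 543 cells, and from 17.0 to 90.1 CPM (median 27.5) at E7.5, with 543 transcripts in 177 of 429 cells. The stages did not overlap. At E6.75, 34 of those transcripts came from replicates 2_13 and 2_14, and replicates 1_10 and 1_11 had 0. The mean was 1.17 ± 1.59 CPM (SD, n = 6) against 40.0 ± 23.0 (SD, n = 11), a log2 change of 4.66 ± 0.50 (SE; by edgeR quasi-likelihood test, adjusted p = 4.73e-07), where 38.8% of 9998 tested genes passed.

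Apela also rose. Its level was 16.5 to 31.5 CPM (median 18.4) at E6.75 and 8.19 to 94.9 CPM (median 40.8) at E7.5, and the stages overlapped: E7.5 replicates 9, 10 and 11 lay below the highest E6.75 library. The means were 20.9 ± 5.72 and 48.1 ± 27.9 CPM, a log2 change of 1.19 ± 0.30 (SE; by edgeR adjusted p = 0.00378). Apln was spread widely at E6.75, from 10.8 to 66.0 CPM (median 24.2), with replicates 2_13 and 2_14 at 65.8 and 66.0 and the others at 26.4 or less. At E7.5 it ran from 17.7 to 94.4 CPM (median 55.3). Its log2 difference of 0.64 ± 0.34 (SE) did not pass the test (edgeR adjusted p = 0.147). Without replicates 2_13 and 2_14 together the Apln difference was 1.54 and passed (edgeR adjusted p = 0.000967), while Aplnr was at 7.37 (adjusted p = 1.41e-07) and Apela at 1.13 (adjusted p = 0.0224). In such sums, fewer cells of a type and less RNA per cell cannot be told apart.

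**Figure D1:**
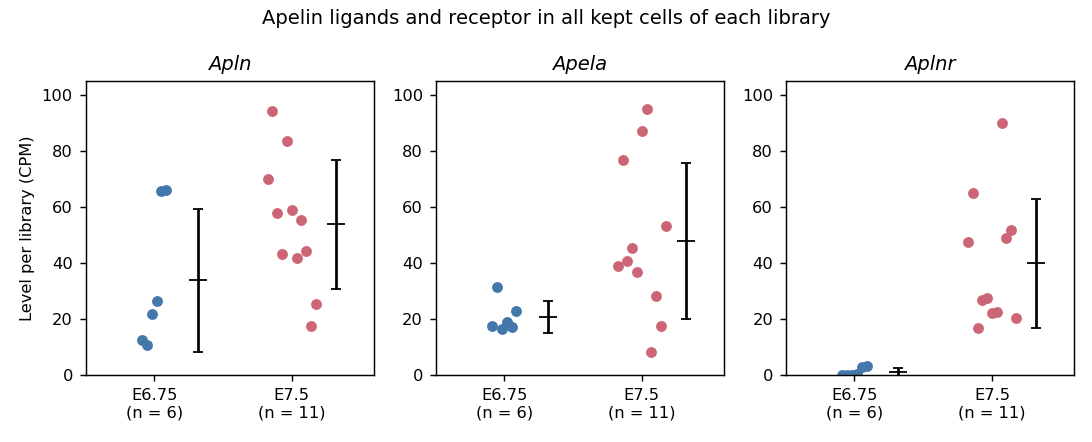
Level of each member in the kept cells of each library (CPM, vertical axis) at E6.75 (6 libraries) and E7.5 (11 libraries); points are libraries and the black mark is the mean ± SD. Aplnr stays at 3.49 CPM or less at E6.75 and at 17.0 CPM or more at E7.5, while the stages overlap for both ligands.

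Detection in single cells was low and followed depth. With every cell thinned to 2000 transcripts, Aplnr was detected in 0.347 ± 0.851% of cells at E6.75 and in 4.76 ± 2.20% at E7.5 (SD over libraries, n = 6 and 11; exact two-sided permutation test, p adjusted over the 3 genes = 0.00339). Apela was detected in 2.36 ± 1.91% and 7.05 ± 5.01% (exact permutation test, adjusted p = 0.0628), and Apln in 5.92 ± 4.66% and 6.95 ± 4.67% (adjusted p = 0.665, same test). Without thinning the shares were 4.04% and 39.1% for Aplnr, 37.7% and 40.9% for Apela, and 34.3% and 45.6% for Apln. In the thinned cells, the call for Aplnr did not pass when 2 transcripts per cell were asked for (exact permutation test, adjusted p = 0.809). Such cells made up 0% at E6.75 and 0.268% at E7.5, too few for this setting to decide. Without thinning, 15 of the 23 Aplnr cells of E6.75 and 75 of the 177 of E7.5 held 1 transcript. The median cell with Apln at E7.5 held 2 transcripts of it, and the richest cells of the data set held 48 transcripts of Apln, 50 of Apela and 18 of Aplnr.

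Clusters of cells, named from marker genes, placed the ligands and the receptor in partly different cells; the members were left out of the genes used for clustering, and the values are descriptions of pooled cells with no test. At E6.75 the primitive streak-like cluster (59 cells from 4 libraries) had 165 CPM of Apln, 31.4 of Apela and 8.97 of Aplnr. Epiblast-like cells of that stage (188 cells) had 11.4 CPM of Apln, 10.7 of Apela and 0.114 of Aplnr. Outside the streak at E6.75, Apela stood at 34.4 CPM in an unnamed cluster led by Nefl, Nanog and Nefm that also held Fgf8 and Foxa2 (51 cells), and 36.3 CPM in an unnamed cluster led by Platr10 (68 cells).

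At E7.5 several clusters were high in 1 member and low in another. Definitive endoderm-like cells (17) had 163 CPM of Apela but 4.22 of Apln and 8.44 of Aplnr. Blood and endothelial progenitors-like cells (16) had the reverse, with 73.0 CPM of Aplnr, 1.66 of Apln and 6.64 of Apela. Of 2 paraxial mesoderm-like clusters, the one led by Tbx6, Aldh1a2 and Dll1 (58 cells) had 123 CPM of Aplnr and 85.8 of Apln, and the one led by Foxc2 and Alx1 (48 cells) had 67.5 CPM of Aplnr and 9.56 of Apln. Both had little Apela, at 16.2 and 3.37 CPM. Extraembryonic and lateral mesoderm-like cells (60) held 28.2 CPM of Aplnr, 38.7 of Apela and 6.94 of Apln.

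The node and notochord-like cluster (10 cells from 5 libraries) had high pooled levels of all 3 genes, with 192.4 CPM of Apln, 164 of Apela and 140 of Aplnr. Each gene was found in 7 of its 10 cells. The highest Apln level, 207 CPM, was in an unnamed E7.5 cluster led by Nkx1-2, Hes3 and Gbx2 (51 cells from 6 libraries), which also held 115 CPM of Apela and 29.2 of Aplnr. E7.5 epiblast-like cells (119) had 37.7 CPM of Apln and 56.1 of Apela. Aplnr was found in 4 of them (3.36%, exact 95% interval 0.923 to 8.38), at a median depth of 25871 transcripts. In the 106 paraxial mesoderm-like cells, at a median of 33665, the share was 77.4% (68.2 to 84.9). For Apln, 2 of 17 definitive endoderm-like cells (11.8%, 1.46 to 36.4) and 27 of 32 streak-like cells (84.4%, 67.2 to 94.7) had a transcript at like depths of 39782 and 39875. These intervals cover counting error only.

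**Figure D2:**
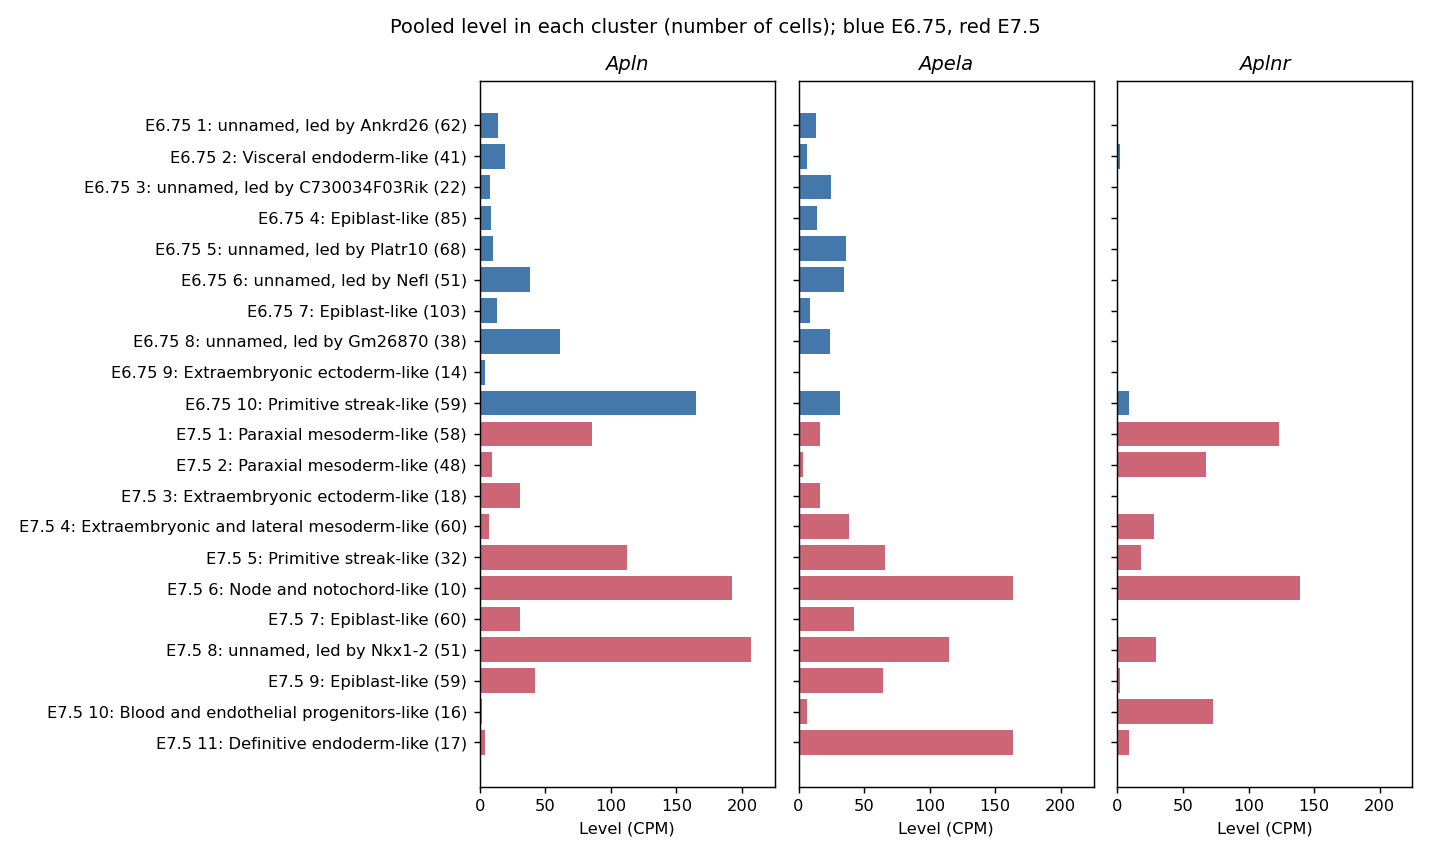
Pooled level (CPM, horizontal axis) of each member in each cluster, with the number of cells in brackets; blue bars are E6.75 and red bars E7.5. Aplnr stands at 28.2 CPM or more in mesoderm-like clusters of E7.5, and Apela at 163 CPM in the definitive endoderm-like cluster.

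The members were next followed through cells grouped by detection of Mesp1 (early mesoderm), Foxa2 (endoderm and axial mesoderm) and T (streak), without the clusters like visceral endoderm or extraembryonic ectoderm. At E6.75, 290 cells had none of the 3 genes, and Aplnr had 0 transcripts in them, which allows a share of up to 1.03% of cells with a transcript. Aplnr was found in 2 of 71 cells with T alone, in 3 of 78 with Foxa2 but not Mesp1, in 8 of 29 with Mesp1 but not Foxa2, and in 8 of 20 with both. Apln was found in all 20 cells with both genes, at 163 CPM, in 62.1% of Mesp1 cells (107 CPM), 62.8% of Foxa2 cells (66.8 CPM), 47.9% of cells with T alone (36.7 CPM) and 20.3% of cells with none (8.38 CPM). Replicates 2_13 and 2_14 gave 15 and 11 of the 29 Mesp1 cells, and 12 and 6 of the 20 cells with both. In the 3 Mesp1 cells of replicate 2_9, Aplnr was at 0 and Apln at 150 CPM. Within replicate 2_13, Apln was at 7.94 CPM with none, 94.6 with Mesp1 and 156 with both. Within replicate 2_14 it was at 8.27, 107 and 284 CPM. The median depth was 61650 transcripts in cells with both and 34681 in cells with none, and the part of depth and library in these shares was not tested.

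Apela had a flatter pattern at E6.75, with 15.7 CPM in cells with none of the 3 genes, 34.1 with T alone, 18.4 with Mesp1, 22.7 with both and 29.2 with Foxa2. At E7.5 its order was 16.8 CPM with Mesp1, 43.2 with none, 65.3 with T alone, 70.0 with both and 151 with Foxa2. Aplnr at E7.5 stood at 9.31 CPM with none, 34.6 with T alone, 36.0 with Foxa2, 62.8 with Mesp1 and 63.2 with both, and was detected in 86 of 125 Mesp1 cells (68.8%) and 10 of 12 cells with both. Apln at E7.5 stood at 31.3 CPM with none, 51.3 with Mesp1, 74.5 with both, 80.2 with T alone and 104 with Foxa2. Libraries varied widely: for Apln with T alone, the lowest, median and highest of 10 libraries were 26.2, 67.0 and 156 CPM.

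Within libraries, Apela separated the Foxa2 gate (Foxa2 without Mesp1) from the Mesp1 gate (the reverse) at E7.5. Apela was at 61.6 to 291 CPM (median 154) in the Foxa2 gate and 0 to 44.1 CPM (median 13.5) in the Mesp1 gate over 8 libraries, with no overlap, and was higher in the Foxa2 gate in 8 of 8. Its log2 fold change, Mesp1 gate minus Foxa2 gate, was -2.87 ± 0.30 (SE; edgeR with library as block, adjusted p = 3.73e-08), where 7.48% of 7659 genes passed. Apln was also higher in the Foxa2 gate, in 7 of 8 libraries, at 0 to 180 CPM (median 103) against 0 to 82.6 (median 48.9), with a log2 fold change of -1.17 ± 0.30 (edgeR adjusted p = 0.0112). The Apln ranges overlap, and the call was lost without E7.5 replicate 2 (adjusted p = 0.102) or 7 (0.0525), and with DESeq2 (0.0670). Aplnr was higher in the Mesp1 gate in 7 of 8 libraries, but its difference of 0.73 ± 0.33 did not pass (edgeR adjusted p = 0.220).

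Definitive endoderm-like (15), epiblast-like (12) and node and notochord-like (8) cells made up most of the 48 Foxa2-gate cells of E7.5, and paraxial mesoderm-like cells 53.6% of the 125 in the Mesp1 gate. Beside Apela, 9 of 9 tested endoderm and axial genes were lower in the Mesp1 gate, such as Foxj1 (-7.39) and Sox17 (-5.27). Their median log2 fold change was -4.97 against 0.01 over all genes, of which 4.84% were lower. Foxa2, which sorts these cells, was not among the 9. Of 8 tested epiblast genes, 6 were also lower and 0 higher, with a median of -1.66. The summed level of 10 visceral endoderm markers ran from 0 to 797 CPM (median 13.1) in the Foxa2 gate, with none of the 10 at 0 over all its cells, and from 11.5 to 45.0 CPM (median 26.1) in the Mesp1 gate, where Apoa4, Apob, Afp and Hnf4a were at 0. With cells left out by marker transcripts instead of by cluster, Apela kept its call.

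At E6.75 the gates could be compared in 3 libraries, and 0.744% of 7659 genes passed. None of the members passed. Apln was at 10.5, 86.5 and 83.4 CPM in the Foxa2 gate and 150, 94.6 and 107 CPM in the Mesp1 gate of replicates 2_9, 2_13 and 2_14, higher in the Mesp1 gate each time, with a log2 difference of 0.90 ± 0.35 (edgeR adjusted p = 0.595). Apela was at 26.8, 34.1 and 24.1 against 9.35, 9.83 and 33.1 CPM (-0.70 ± 0.47, edgeR adjusted p = 1). Aplnr was at 0, 0.681 and 4.02 against 0, 8.60 and 14.9 CPM (2.30 ± 0.79, edgeR adjusted p = 0.408).

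The test of the difference between stages passed for Apln: its Mesp1-minus-Foxa2 difference changed by -2.07 ± 0.46 on the log2 scale (edgeR adjusted p = 0.0319), a test that 0.392% of genes passed. The E6.75 side of that test rests on replicate 2_9, which had 3 Mesp1-gate cells; without it the change was -1.40 (adjusted p = 0.114). The call was also lost without E7.5 replicate 1 (adjusted p = 0.0632), 2 (0.125), 4 (0.0798) or 7 (0.0799). For Apela the change was -2.17 ± 0.60 (edgeR adjusted p = 0.142) and for Aplnr -1.57 ± 0.84 (0.809), neither past the threshold.

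**Figure D3:**
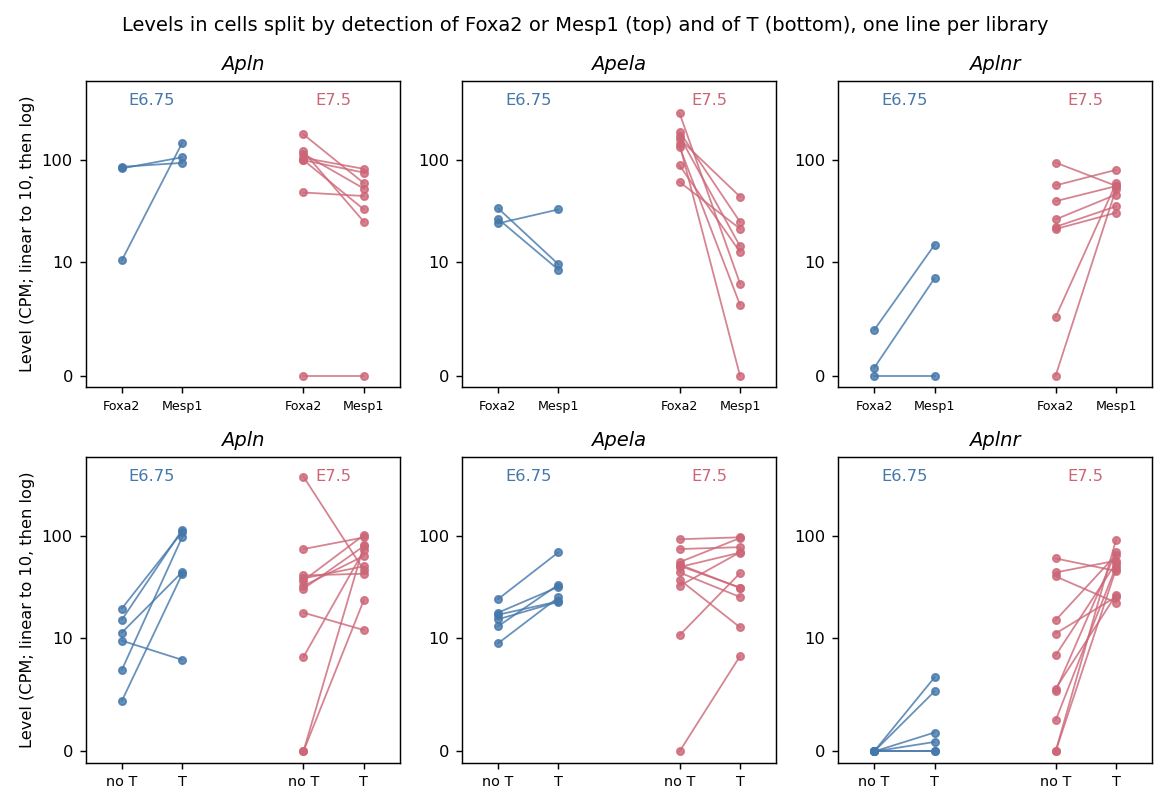
Level of each member (CPM, linear to 10 and then logarithmic) in cells with Foxa2 or Mesp1 alone (top) and in cells without and with T (bottom); each line joins the values of a library, blue for E6.75 and red for E7.5. Clusters like visceral endoderm or extraembryonic ectoderm are left out. Apela falls from the Foxa2 to the Mesp1 gate in 8 of 8 E7.5 libraries, and Aplnr is at 0 in the remaining E6.75 cells without T.

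All 3 genes were higher in T cells than in cells without T at E6.75. Apln was at 8.08 to 116 CPM (median 71.7) with T and 4.46 to 19.5 CPM (median 10.6) without, higher in 5 of 6 libraries, with a log2 change of 2.55 ± 0.29 (SE; by edgeR adjusted p = 1.91e-07), where 2.42% of 8189 genes passed. The exception was replicate 1_11, at 8.08 against 9.78 CPM. Apela was at 22.7 to 69.5 CPM (median 28.5) against 9.53 to 24.1 (median 16.1), higher in 6 of 6 libraries (1.07 ± 0.22, edgeR adjusted p = 0.00189).

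With clusters like visceral endoderm or extraembryonic ectoderm left out, Aplnr had 34 transcripts in the T cells of E6.75 and 0 in the 337 cells without T. With a floor of 3 transcripts over that whole group, it was at least 18.2-fold higher with T, at 4.01 CPM pooled (edgeR adjusted p = 0.0195). The call rests on replicates 2_13 and 2_14, whose T cells were at 5.31 and 6.54 CPM: it was lost without the first (adjusted p = 0.152), without the second (0.280), and without both (1). Without both, Apln in T cells kept its call (2.38, adjusted p = 0.00319), and Apela did not (0.91, adjusted p = 0.298). Aplnr was also found in 2 of 41 visceral endoderm-like cells of E6.75, which this comparison left out. With no cells left out, the log2 change of Aplnr was 3.32 and did not pass (edgeR adjusted p = 0.0514).

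At E7.5, Apln and Aplnr were higher with T, and Apela did not pass the test. Aplnr was at 22.3 to 92.6 CPM (median 50.6) with T and 0 to 60.5 (median 8.48) without, higher in 9 of 11 libraries (log2 fold change 1.37 ± 0.35, edgeR adjusted p = 0.0245), where 3.22% of genes passed. Apln was at 11.99 to 103 CPM (median 64.0) with T and 0 to 384 (median 32.5) without, higher in 9 of 11 (1.14 ± 0.31, edgeR adjusted p = 0.0295); the value of 384 came from 5 transcripts in 3 cells of replicate 9. The calls were near the threshold: Apln lost its own without any of replicates 1, 3, 4, 6 and 7 (adjusted p up to 0.0912), and Aplnr without 2, 3, 4 or 11 (up to 0.0981). Apela was at 8.42 to 97.4 CPM (median 43.3) against 0 to 93.2 (median 49.8), a difference of 0.17 ± 0.20 (edgeR adjusted p = 0.813). With the expression filter, none of the 3 T differences changed between stages by a test that 0.513% of genes passed (-1.40 ± 0.44 for Apln, -0.90 ± 0.29 for Apela, -3.08 ± 1.13 for Aplnr; edgeR adjusted p = 0.256, 0.308 and 0.460). Without the expression filter the changes of Apln (-1.39, edgeR adjusted p = 6.01e-05) and Aplnr (-3.10, 0.00973) passed. T cells were deeper than cells without T, with medians of 55718 against 36796 transcripts at E6.75 and 34650 against 23070 at E7.5, and the part of depth in these differences was not tested. Visceral endoderm markers summed to 9.20 to 486 CPM (median 27.3) with T at E7.5 and 0 to 69.6 (median 29.7) without, where Apoa4 and Hnf4a were at 0, and their part was not tested either.

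Cells with an Aplnr transcript at E7.5 (177 cells) were compared with those without (234 cells) within 11 libraries, leaving Aplnr itself out. Of 5870 genes, 7.16% passed, 3.39% higher and 3.76% lower. The genes that rose most, in every library, included Foxc2 and Foxc1, transcription factors of paraxial and cardiovascular mesoderm (3.41 ± 0.34 and 2.54 ± 0.37 on the log2 scale), the Notch ligand Dll3 (2.53 ± 0.27), the protocadherin Pcdh19 (3.41 ± 0.36), Hoxb1 (2.27 ± 0.28), fibronectin (Fn1, 2.21 ± 0.24) and the WNT potentiator Rspo3 (2.04 ± 0.22), with edgeR adjusted p between 1.78e-06 and 9.07e-05. Fn1 stood at 1004 ± 221 CPM with Aplnr and 238 ± 187 without (SD, n = 11). With every cell thinned to 2000 transcripts, its log2 change was 0.38 and did not pass (edgeR adjusted p = 0.984), and 2 genes passed in all. Thinning cut cells with median depths of 38416 (with Aplnr) and 25101 transcripts (without) to 2000, and the cause of these losses was not tested.

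The genes that fell most were the epiblast genes Utf1 (-3.21 ± 0.30), Slc7a3 (-3.02 ± 0.23), Pou3f1 (-1.92 ± 0.26) and Dnmt3b (-1.73 ± 0.19), with the claudins Cldn7 (-2.14 ± 0.30) and Cldn6 (-1.76 ± 0.24) and the chemokine Cxcl12 (-2.37 ± 0.34; edgeR adjusted p for all 7 between 3.39e-08 and 7.72e-05). All 8 epiblast genes of the list fell, with a median of -1.53 against 0.00 over all genes, and 6 of 9 tested streak and nascent mesoderm genes rose (T, Mesp1, Lefty2, Snai1, Lhx1, Tbx6) and 0 fell. Of 4 tested cardiovascular genes, Foxf1 (1.49 ± 0.37) and Gata4 (1.23 ± 0.26) rose. Cells with Aplnr were deeper (median 38416 against 25101 transcripts), and 46.3% of them were paraxial mesoderm-like, while 49.1% of those without were epiblast-like. Visceral endoderm markers summed to 15.4 to 740 CPM (median 30.3) with Aplnr and 11.6 to 49.6 (median 26.2) without; Afp was at 0 in the first and Apoa4 and Hnf4a in the second, and their part in the result was not tested.

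Of the ligands, Apela was lower in Aplnr cells. Apela was at 3.82 to 96.2 CPM (median 21.6) with Aplnr and 11.6 to 161 CPM (median 50.1) without, lower in 9 of 11 libraries, with a log2 fold change of -1.21 ± 0.30 (edgeR adjusted p = 0.0130), a call lost without replicate 2 (adjusted p = 0.0597) and without the library block (0.0703). Apln did not differ by the test (-0.12 ± 0.23, edgeR adjusted p = 0.863), at 15.8 to 84.2 CPM (median 42.1) with and 12.4 to 128 CPM (median 51.4) without. At E6.75, 2 libraries had at least 3 Aplnr cells, so no test was run: Apln was at 202 and 153 CPM in Aplnr cells of replicates 2_13 and 2_14, against 54.3 and 55.8 CPM in the other cells, and Apela at 16.2 and 16.5 against 18.5 and 24.7 CPM.

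Cells with Apela were compared with those without in the same way. At E6.75 (201 against 287 cells, 6 libraries) 1.31% of 9170 genes passed, and 0.709% were higher. Those higher included streak and signalling genes: Foxa2 (1.58 ± 0.24) and T (1.15 ± 0.18), the TGF-beta antagonist Fst (1.18 ± 0.12), the WNT response gene Axin2 (1.18 ± 0.16), Pdgfa (1.28 ± 0.18), Fgf8 (1.10 ± 0.13) and Evx1 (1.02 ± 0.18; edgeR adjusted p between 6.44e-07 and 0.00161). Of 7 tested streak and nascent mesoderm genes, T, Eomes and Evx1 rose and 0 fell. Of 8 epiblast genes, Utf1 (-0.41 ± 0.06) and Dnmt3b (-0.21 ± 0.04) fell and 0 rose (edgeR adjusted p = 0.000136 and 0.00388). Those that fell included Spink1 (-1.51 ± 0.25, edgeR adjusted p = 0.00137) and, of 3 tested visceral endoderm markers, Ttr and Apoa1. The markers of that class summed to 18.0 to 63.1 CPM (median 41.9) with Apela, where Apoa4 was at 0, and 21.2 to 138 CPM (median 76.2) without, with none at 0, and their part in the result was not tested.

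At E7.5 (183 against 213 cells, 10 libraries) 3.12% of 6385 genes passed, 1.94% higher and 1.17% lower. The genes with the largest rises in every library included Cdh1, the epithelial cadherin (1.04 ± 0.10), Cldn6 (1.29 ± 0.12), the splicing regulator Esrp1 (1.36 ± 0.20), Eras (1.43 ± 0.20) and the glucose transporter Slc2a3 (1.28 ± 0.11; edgeR adjusted p between 1.38e-07 and 0.000182). Those with the largest falls in every library included the Nodal inhibitor Lefty2 (-2.75 ± 0.28), Pcdh19 (-2.20 ± 0.23), Dll3 (-1.54 ± 0.19), Dll1 (-1.51 ± 0.28) and Fn1 (-1.30 ± 0.12; edgeR adjusted p between 1.38e-07 and 0.00200). Of 8 epiblast genes 6 rose and 0 fell, with a median of 0.74, and of 9 tested streak and nascent mesoderm genes Mesp1, Lefty2, Snai1 and Tbx6 fell and 0 rose. Cer1 (2.06 ± 0.30) and Trh (1.58 ± 0.24), both tested endoderm and axial genes, rose. The 2 stages were not compared by a test of the difference. Visceral endoderm markers summed to 13.9 to 425 CPM (median 26.6) with Apela, with none at 0, and to 15.2 to 48.9 (median 28.6) without, where Apoa4 was at 0; their part in the result was not tested.

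The other ligand rose with Apela at both stages, at 9.27 to 86.4 CPM (median 35.1) of Apln with Apela and 7.58 to 56.6 (median 13.1) without at E6.75 (0.94 ± 0.16, higher in 5 of 6 libraries, edgeR adjusted p = 0.00116), and 15.4 to 129 (median 58.8) against 12.4 to 80.3 (median 39.2) at E7.5 (0.82 ± 0.18, 9 of 10, edgeR adjusted p = 0.00942). Without E6.75 replicates 2_13 and 2_14 the first difference was 1.11 (adjusted p = 0.0589), and the second did not pass without replicate 2 (0.60, adjusted p = 0.0736) or with DESeq2 (0.0519). The receptor was lower with Apela at E7.5, at 5.75 to 51.9 CPM (median 21.9) against 23.4 to 91.8 (median 56.2), lower in 9 of 10 libraries (-1.18 ± 0.23, edgeR adjusted p = 0.00243). Cells with Apela had a median depth of 61256 against 27597 transcripts at E6.75 and 38416 against 23482 at E7.5; at 2000 transcripts per cell 0 of 470 genes passed the E7.5 comparison (24 at an unadjusted p under 0.05; edgeR).

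**Figure D4:**
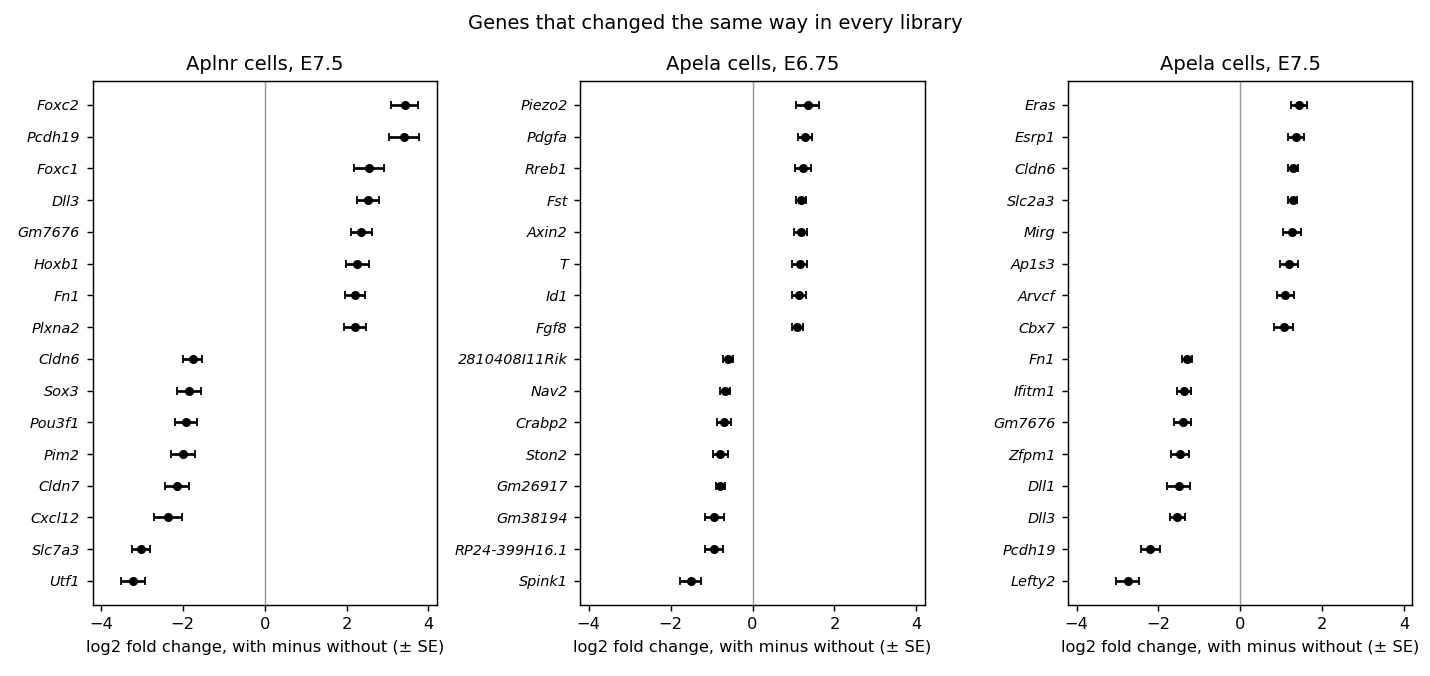
Log2 fold change ± SE (horizontal axis) of the 8 genes per direction with the largest changes that had the same sign in every library, for cells with against without Aplnr at E7.5 and Apela at E6.75 and E7.5. Fn1, Dll3, Pcdh19 and Gm7676 are higher with Aplnr and lower with Apela at E7.5.

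Co-detection of the transcripts in single cells was set against the number expected if they were independent within a library. At E7.5, 112 of 411 cells had both Apln and Apela where 88.7 were expected, a mean log2 ratio of 0.39 ± 0.19 (SD, n = 11), above 0 in 11 of 11 libraries (exact sign-flip permutation test, p = 0.000977, the smallest 11 libraries allow; adjusted over 6 tests 0.00586). At E6.75 the ratio was 0.48 ± 0.20, above 0 in 6 of 6 libraries (106 cells, 79.9 expected; exact permutation p = 0.0313, the smallest 6 libraries allow; adjusted p = 0.0938). Cells with either ligand were deeper than cells without; thinned to 2000 transcripts, the E7.5 ratio was 0.30 (exact permutation test, adjusted p = 0.703) with 8 cells holding both, and the E6.75 ratio turned to -0.0593 (adjusted p = 1, same test) with 1 such cell.

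Ligand and receptor were not found together more or less often than expected by the test. The expected numbers did not allow for depth, and cells with Aplnr were deeper than cells without, as were cells with either ligand. Median depth was 38416 against 25101 transcripts for Aplnr at E7.5 and 63428 against 41675 at E6.75. The test therefore cannot separate shared depth from a tendency to be found together or apart. Apela and Aplnr shared 74 cells at E7.5 where 81.8 were expected (-0.22 ± 0.58, exact permutation test, adjusted p = 0.362), and Apln and Aplnr 89 where 87.0 were expected (0.12 ± 0.34, adjusted p = 0.362, same test). At E6.75 Apela and Aplnr shared 12 cells (10.3 expected; exact permutation test, adjusted p = 1) and Apln and Aplnr 17 of 21 receptor cells (11.996 expected; 0.44 ± 0.44, adjusted p = 0.250), a test with 4 libraries off 0 and a smallest possible p of 0.125. Of the 177 receptor cells of E7.5, 64 had neither ligand, 39 Apln only, 24 Apela only and 50 both.

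**Figure D5:**
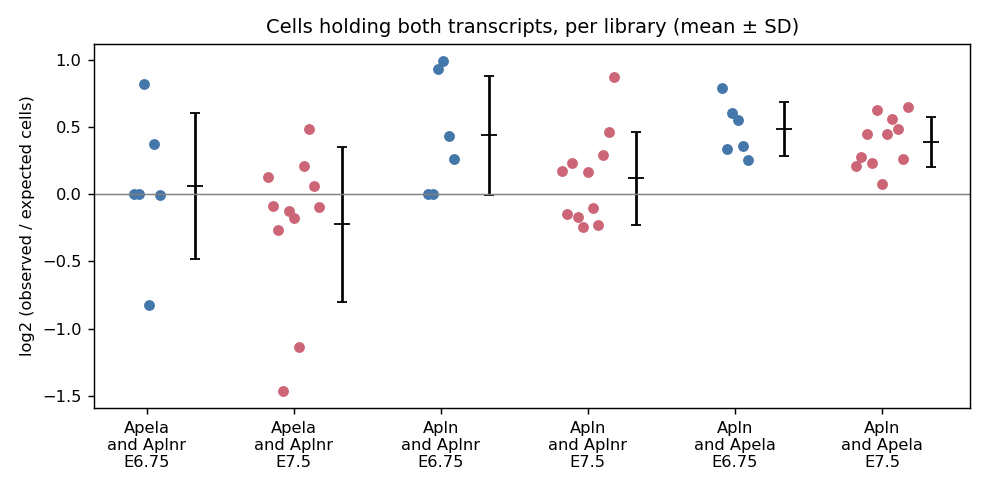
Log2 ratio of observed to expected cells with both transcripts (vertical axis) in each library, for 3 pairs of members at each stage; points are libraries (blue E6.75, red E7.5) and black marks the mean ± SD. The Apln and Apela points lie above 0 in 6 of 6 and 11 of 11 libraries.

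Genes that process the peptides or carry the signal were read in the same comparisons. Of 11 tested receptor signalling genes (G protein subunits, arrestins, a receptor kinase and downstream kinases), 0 passed in T cells at either stage. Over all 8189 tested genes 2.42% passed there at E6.75 and 3.22% at E7.5, so the 0 is not read as particular to this list. Gnai2, a Gi subunit, was lower in the Mesp1 gate at E7.5 (-0.70 ± 0.11) and in Aplnr cells (-0.32 ± 0.05). It was higher in E7.5 Apela cells (0.32 ± 0.06), with edgeR adjusted p between 2.77e-05 and 0.00282 across these comparisons. Akt1 was higher in Aplnr cells (0.63 ± 0.19, edgeR adjusted p = 0.0414). Of the signalling list, 1 of 11 tested genes passed in the E7.5 gates and 1 of 10 in E7.5 Apela cells. In Aplnr cells, 1 of 9 was higher and 1 lower. Over all tested genes 7.48%, 3.12% and 7.16% passed in the same order, so these genes are not read as particular to the list. Between the stages, 2 of 11 rose and 3 fell, among them Gnai2 (-0.56 ± 0.09, edgeR adjusted p = 6.92e-05). From E6.75 to E7.5, where 38.8% of all tested genes passed, 3 of 5 tested processing and breakdown genes passed, a share that is not read as particular to this list. The convertase Pcsk5 (4.17 ± 0.39) and the peptidase Mme (1.95 ± 0.34) rose and Pcsk6 fell (-1.24 ± 0.31; edgeR adjusted p between 6.58e-08 and 0.00367), and Pcsk5 was also higher in the Mesp1 gate at E7.5 (5.40 ± 0.79, edgeR adjusted p = 1.49e-05). Pcsk5 was 1 of 2 tested genes of its list in the gates. Among other guidance genes, Pdgfra was higher in Aplnr cells (2.03 ± 0.29) and lower in E7.5 Apela cells (-1.24 ± 0.16). Its ligand Pdgfa was lower in the first (-0.79 ± 0.21) and higher in the second (0.99 ± 0.18). For both genes the edgeR adjusted p lay between 2.89e-05 and 0.0187. Of 5 tested guidance genes, 2 were higher and 2 lower in Aplnr cells. In E7.5 Apela cells, 1 of 5 was higher and 1 lower.

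Across 19 clusters of at least 15 cells of both stages, the genes with the profiles most like each member were ranked by Pearson's r of log2(CPM + 10), as a description over clusters that share libraries. For Apln they were Wnt8a (r = 0.89), Fst (0.87), Galnt12 (0.83), Sp8 (0.82) and Cdkn1a (0.80). For Apela they were Rnf114 (0.79), Slc4a3 (0.78), Krtcap3 (0.76), Gm5145 (0.76) and Wasf1 (0.73). For Aplnr they were Notch1 (0.95), Man2a1, Fn1 (both 0.92), Wnt2 (0.91) and Tnfrsf1a (0.90). Between members, r was 0.36 for Apln with Apela, 0.12 for Apln with Aplnr and -0.10 for Apela with Aplnr.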

How the data were processed

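Single-cell mRNA of mouse embryos was measured in 6 E6.75 and 12 E7.5 libraries, grouped by the labels. The authors deposited expected counts of transcripts per gene and barcode, in 192 columns per library of which 96 were used; the values equal observed UMIs corrected for collisions. Reads were demultiplexed with bcl2fastq 2.17.1.14 and BWA 0.6.2-r126 is named as a tool, per the submitters' processing notes; build, annotation and strand are not given in the sources used here. The members and gene lists were chosen with earlier results of these data known.

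Expected counts were rounded to whole numbers, cells under 2000 nuclear transcripts were dropped, and a library needed 10 remaining cells to be summed. Libraries share their 96 barcode numbers by plate design. The lowest chi-square between libraries of a stage was 2.11 per degree of freedom over 70 pairs, so none was a second copy. Clusters came from scanpy 1.11.5 (igraph 0.11.9) within each stage; the rule for naming them was set after they were seen. No doublet caller was run on these picked or sorted cells; leaving out cells above 3 times the library median depth was tried instead.

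Sums were tested with edgeR 4.0.16 in R 4.3.3 (TMM, filterByExpr, quasi-likelihood F test, library as block in comparisons within libraries, at least 3 cells on each side), with Benjamini-Hochberg adjustment over all tested genes at 0.05; the genes that split the cells were left out of counts. The procedure was tested on simulated data. Named genes were the 10 largest changes per direction with the same sign in every library and at least 10 CPM; some results are not reported here. Shares and co-detection used exact permutation tests over libraries. DESeq2 1.42.0, other filters, depths, cell exclusions and omitted libraries were tried. Thinned sums left the members under the expression filter.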

Additional observations from a re-analysis of the deposited data

Results flagged for a closer look

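Of 24 groups of 4 to 10 libraries, 2 had a library far from the others, and chance alone sets apart about 1 group in 20. Among T cells of E6.75, Apela was at 69.5 CPM in replicate 1_11 and at 33.5 CPM in the next library. Among Apela cells of E7.5, Apela itself was at 197 CPM in replicate 8 and at 119 CPM in the next.

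The Mesp1-minus-Foxa2 difference of Apln differed between the stages by -2.07 on the log2 scale (edgeR interaction test, adjusted p = 0.0319). The call was lost without E6.75 replicate 2_9 (-1.40, adjusted p = 0.114, same test) and with DESeq2 (-2.32, adjusted p = 0.130). It was also lost without any of E7.5 replicates 1, 2, 4 and 7.

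Transcripts of the members also lay outside the kept cells. Used barcodes under the depth minimum held 8.001 transcripts of Apln, 21.004 of Apela and 5.001 of Aplnr over all libraries. Barcode columns that were not used held 16.0 of Apln, 4.0005 of Apela and 7.001 of Aplnr. Each was at most 1.68% of the transcripts of that gene over all barcode columns.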

How the results depend on the processing

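Comparisons within libraries pair both sides of each library, so the library was kept as the replicate block. Without the replicate block, Apln in the E7.5 gates was at -0.91 (edgeR adjusted p = 0.183), its gate change at -1.77 (0.5997), Apela in E6.75 T cells at 0.99 (0.371) and Apln in E7.5 T cells at 1.12 (0.155); genes called fell to 275 for Aplnr cells, 39 for Apela cells of E7.5 and 0 for Apela cells of E6.75 (318 of 9170 at an unadjusted p under 0.05). With DESeq2 the values were -1.10 (adjusted p = 0.0670) for Apln in the E7.5 gates, -2.32 (0.130) for its gate change and 1.05 (0.307) in E7.5 T cells, with 40 genes for Apela cells of E6.75.

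Without the expression filter, 878, 226 and 365 genes passed for Aplnr cells and for Apela cells of E6.75 and E7.5, and 3 changes between stages passed: Apela in the gates (-2.07, edgeR adjusted p = 0.00942), Apln with T (-1.39, 6.01e-05) and Aplnr with T (-3.10, 0.00973). With cells thinned to 2000 transcripts, 2 genes passed for Aplnr cells and 0 for Apela cells of E7.5. Thinned co-detection was -0.0166 for Apela with Aplnr at E6.75, -0.0206 for Apln with Aplnr at E7.5, -0.0593 for Apln with Apela at E6.75 and 0.30 at E7.5. Apela with Aplnr at E6.75 was -0.10 with a pseudocount of 0.1, -0.0717 without cells above 3 times the median depth and -0.0020 without replicates 2_13 and 2_14.

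With at least 2 transcripts of the sorting gene the gate change of Apln was -1.84 (adjusted p = 0.107). With no cells left out, Aplnr in E6.75 T cells was at 3.32 (0.0514) and Apln in E7.5 T cells at 1.03 (0.0921), with 313 genes for Apela cells of E6.75; leaving cells out by marker transcripts gave 1.02 (0.0610) for Apln in E7.5 T cells. Shares thinned to 4000 differed by 7.88 points for Apela (exact permutation test, adjusted p = 0.0470), the Aplnr share at 2 transcripts by 0.268, and the Apln share with the 4 E6.75 replicates numbered 2_ by -0.783; those 4 gave 67 genes for Apela cells.

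Without replicates 2_13 and 2_14, an alternative chosen after seeing the data, Apln by stage was 1.54, Apela in E6.75 T cells 0.91, Aplnr there 2.37, and 75 genes passed for Apela cells of E6.75. Leaving out 1 library at a time gave 3.99 to 5.40 points for the Apela share, 0.46 to 0.93 for Apln by stage, -1.25 to -1.03 for Apln in the E7.5 gates, -2.65 to -1.40 for its gate change, 0.95 to 1.26 for Apln and 1.17 to 1.80 for Aplnr in E7.5 T cells, 3.74 to 4.67 for Aplnr in E6.75 T cells, -0.0916 to 0.237 for co-detection of Apela with Aplnr at E6.75, and 70 to 149 genes for Apela cells of E6.75. For Apln in Aplnr cells the range was -0.298 to 0.0524, the latter without E7.5 replicate 9. The cause of these changes was not tested. The Aplnr split at E6.75 could not be fitted with 2 libraries, and thinned sums gave no value for the members.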
